A study of Mus musculus with 6 samples.

Results

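Axl, Mertk and Tyro3 are the TAM receptors, a small family of receptor tyrosine kinases, and Gas6 and Pros1 (protein S) are their secreted ligands. All probe sets annotated to exactly 1 gene were searched for these 5 genes, which gave 8 probe sets of 34945, 5 for the 3 receptors and 3 for the 2 ligands. The genes were chosen with the genotype comparison already known, so their differences between genotypes are given as a description, with no p-value. Expression was measured in Treg cells (regulatory T cells, defined by the transcription factor Foxp3) with 3 arrays for Batf-/- mice and 3 for Batf+/+ mice. Batf is an AP-1 transcription factor and binds DNA together with a Jun partner. Both groups were C57BL/6, both carried the FoxP3hCD2 reporter, in which human CD2 marks cells that express Foxp3, and both were CD4+hCD2+ cells from lymph node and spleen, taken directly without culture or treatment. The labels give the genotype of the whole mouse, and neither the age of the mice nor whether several mice were pooled is given in the sources used here. The spread between arrays of a genotype may therefore be partly technical.

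Gas6 and Pros1 are bridging proteins. One end, carboxylated with the help of vitamin K, binds phosphatidylserine on dying cells or activated membranes, and the other end engages the receptors. Gas6 binds Axl, Mertk and Tyro3, while Pros1 is known as a ligand of Mertk and Tyro3. In macrophages the receptors drive the uptake of dying cells, and in dendritic cells they dampen inflammatory and interferon signalling through Socs1 and Socs3. Activated mouse T cells are known to make Pros1, which acts on dendritic cells.

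Each value is a log2 level set against the Batf+/+ median, so 0 is the middle Batf+/+ array of each probe set. They show how a transcript differed between arrays and not how abundant it was, so a gene at or near background cannot be told from an abundant one. The same holds for the markers of Treg cells, whose presence could not be checked as a level. With 3 arrays per genotype the precision is limited. Batf had log2 levels of -3.13, -3.16 and -2.37 on the Batf-/- arrays, against -0.13, 0.00 and 0.14 on the Batf+/+ arrays, so its 1 probe set followed the labels.

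One receptor transcript stood out. Axl probe set 1423586_at had a level 2.37-fold lower in Batf-/- than in Batf+/+ Treg cells (log2 difference -1.24 ± 0.09 SE, n = 3 arrays each), and Pros1 was 1.21-fold lower. The other 6 probe sets, which include a second one for Axl and all of those for Mertk, Tyro3 and Gas6, had Batf-/- and Batf+/+ arrays that overlapped. The 8 probe sets had a median log2 difference of -0.06, beside 0.00 over all probe sets, and 6 of the 8 lay below 0.

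**Figure D1:**
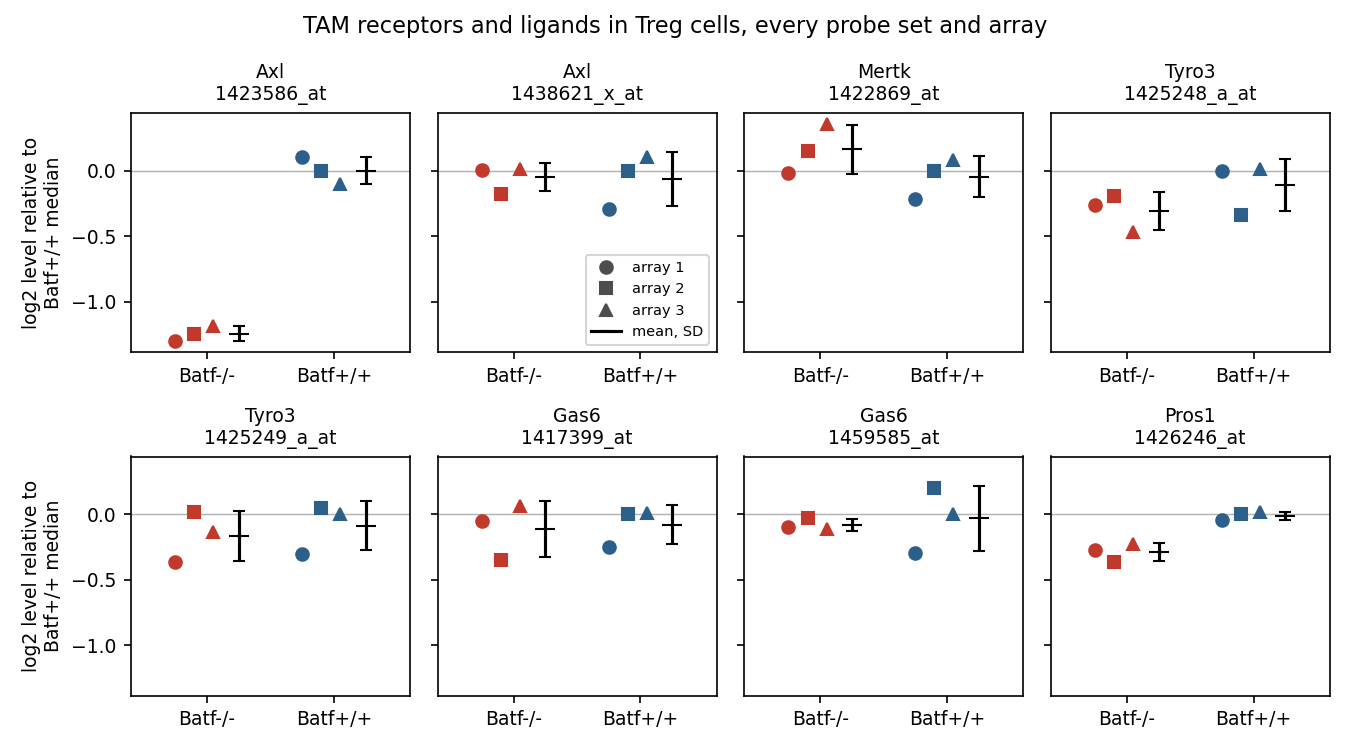
Log2 level of each of the 8 TAM probe sets on each array, relative to the Batf+/+ median, with Batf-/- arrays in red and Batf+/+ arrays in blue; symbols give the array number and black bars the mean and SD (n = 3). Axl 1423586_at is the panel with a wide gap between genotypes, Pros1 has a small gap, and the genotypes overlap in the other 6 panels.

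Axl is the receptor that responds to Gas6 and is known from dendritic cells and macrophages as an inducible, anti-inflammatory member of the family. Its probe set 1423586_at had log2 levels of -1.30, -1.24 and -1.19 on the Batf-/- arrays, against 0.10, 0.00 and -0.10 on the Batf+/+ arrays. The Batf-/- arrays lay close together and far below all Batf+/+ arrays, with a gap of 1.08 between the nearest arrays of the genotypes, wider than the range within the Batf-/- arrays (0.12) or the Batf+/+ arrays (0.21). The means were -1.25 ± 0.06 in Batf-/- cells and 0.00 ± 0.10 in Batf+/+ cells (SD, n = 3 each). Ordered from the largest decrease, it was number 58 of the 34945 probe sets. In these sorted populations, fewer cells that express Axl and less Axl RNA per cell cannot be told apart.

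The second Axl probe set did not show this difference. Probe set 1438621_x_at had log2 levels of 0.01, -0.17 and 0.02 on the Batf-/- arrays, against -0.29, 0.00 and 0.11 on the Batf+/+ arrays. All of its Batf-/- arrays lay within the range of the Batf+/+ arrays. Its log2 difference was 0.01 ± 0.12 (SE), with a 95% interval of -0.26 to 0.29, which does not reach the decrease at 1423586_at. The suffix of 1438621_x_at marks a probe set in which some probes may match other transcripts, and the annotation used here does not say which part of Axl either probe set covers. Over the 6 arrays the pair had a Pearson r of -0.12, given as a description. The mean of both, -0.62 ± 0.07 (SE), therefore averages a large difference with one near 0. Among the 40 genes in this comparison with several probe sets of which at least 1 was called lower by at least 2-fold, 19 (47.5%) had another probe set within 0.2 of 0, and in 10 (25%) all probe sets were called lower. Axl is itself among the 40 and among the 19. Differences near 0 were common, with a 5th percentile of -0.25 and a 95th of 0.22 over all probe sets.

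Mertk, the receptor by which macrophages take up dying cells, had the highest difference of the 8 probe sets. Its 1 probe set, 1422869_at, had log2 levels of -0.02, 0.15 and 0.36 on the Batf-/- arrays, against -0.22, 0.00 and 0.08 on the Batf+/+ arrays. The genotypes overlapped, and the log2 difference was 0.21 ± 0.12 (SE, 95% interval -0.08 to 0.49). Between arrays of the same number Mertk was higher in Batf-/- cells in 3 of 3 pairs, by 0.20, 0.15 and 0.28, and with the number as a block the SE was 0.07 and the 95% interval 0.03 to 0.38. Such agreement was not particular to Mertk, since Axl 1423586_at, Pros1 and Tyro3 1425249_a_at were each lower in 3 of 3 pairs. Their block intervals were -1.46 to -1.03, -0.46 to -0.10 and -0.25 to 0.10. These intervals are not adjusted for the number of probe sets, and the labels give the array number no meaning. The share of all probe sets with 3 of 3 pairs in the same direction is not given here, so nothing is read from this agreement. In both genotypes Mertk was lowest on the array numbered 1 and highest on that numbered 3. The mean level of 20 macrophage markers had the same order, at -0.16, 0.00 and 0.30 on Batf-/- arrays 1, 2 and 3, and at -0.07, -0.01 and 0.12 on Batf+/+ arrays 1, 2 and 3. This order was not particular to macrophage markers. Dendritic cell markers had it (0.01, 0.13 and 0.16 on Batf-/- arrays, -0.12, -0.01 and 0.10 on Batf+/+ arrays). Erythroid markers had it too (-0.21, 0.05 and 0.15 on Batf-/- arrays, -0.17, 0.04 and 0.15 on Batf+/+ arrays). The remaining marker lists did not have it in both genotypes. The part of these cell types in the Mertk values was not tested.

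Tyro3, the receptor best known from the nervous system and from dendritic cells that restrain type 2 responses, was measured by a pair of probe sets. Probe set 1425248_a_at had log2 levels of -0.26, -0.19 and -0.47 on the Batf-/- arrays, against 0.00, -0.34 and 0.02 on the Batf+/+ arrays. Only Batf+/+ array 2 lay among the Batf-/- arrays, and the log2 difference was -0.20 ± 0.12 (SE, 95% interval -0.49 to 0.08). Probe set 1425249_a_at had log2 levels of -0.36, 0.02 and -0.14 on the Batf-/- arrays, against -0.30, 0.05 and 0.00 on the Batf+/+ arrays. Here the arrays numbered 1 were the lowest in both genotypes, and the log2 difference was -0.08 ± 0.13 (SE, 95% interval -0.38 to 0.23).

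Of the ligands, Pros1 was the lower one. Pros1, also an anticoagulant cofactor in plasma, had log2 levels of -0.28, -0.37 and -0.23 on the Batf-/- arrays, against -0.04, 0.00 and 0.01 on the Batf+/+ arrays (probe set 1426246_at). All Batf-/- arrays lay below all Batf+/+ arrays, with a gap of 0.18, and the spread within each genotype was small (SD 0.07 and 0.03). The log2 difference was -0.28 ± 0.08 (SE). A difference at least as low was not rare, since 3.95% of all probe sets lay below it.

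Gas6, the ligand shared by all of the receptors, differed less. Probe set 1417399_at had log2 levels of -0.05, -0.35 and 0.07 on the Batf-/- arrays, against -0.25, 0.00 and 0.01 on the Batf+/+ arrays, a log2 difference of -0.03 ± 0.13 (SE, 95% interval -0.33 to 0.26). Probe set 1459585_at had log2 levels of -0.10, -0.03 and -0.11 on the Batf-/- arrays, against -0.29, 0.20 and 0.00 on the Batf+/+ arrays, a log2 difference of -0.05 ± 0.13 (SE, 95% interval -0.34 to 0.24). In both probe sets each group overlapped the other, and the intervals leave room for differences of up to about the size seen at Pros1.

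**Figure D2:**
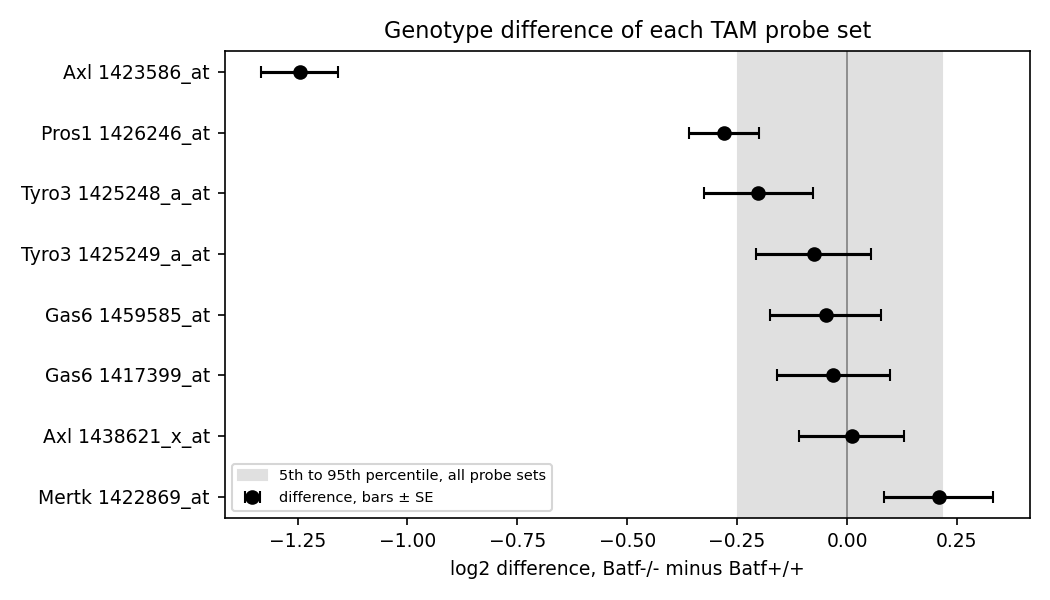
Log2 difference (Batf-/- minus Batf+/+) of each TAM probe set, with bars of ± SE (n = 3 arrays per genotype), over a grey band from the 5th to the 95th percentile of all 34945 probe sets (-0.25 to 0.22). Axl 1423586_at lies far outside the band at -1.24, Pros1 lies just below its lower edge at -0.28, and the other 6 lie inside it.

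By a limma fit over all 34945 probe sets with Benjamini-Hochberg adjustment, a probe set was called at an adjusted p below 0.05. Of the 8 TAM probe sets 1 was called lower in Batf-/- cells, Axl 1423586_at, and 0 were called higher, beside 0.538% called lower and 0.175% called higher over all probe sets. Genotypes that did not overlap with Batf-/- lower were found in 2 of the 8, beside 6.24% of all probe sets, and with Batf-/- higher in 0 of the 8, beside 5.49%. Since the genes were chosen from this comparison, nothing is read from these counts. The order of the 8 differences, from the lowest, was Axl 1423586_at, Pros1, Tyro3 1425248_a_at, Tyro3 1425249_a_at, Gas6 1459585_at, Gas6 1417399_at, Axl 1438621_x_at and Mertk. Apart from the step after Axl 1423586_at, neighbours in this order differed by less than the sum of their SEs.

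The bases just before the annotated transcript start are shown for the 5 genes because Batf acts at DNA elements, of which the AP-1 element TGANTCA is the core. They were read 5′ to 3′ on the strand of the gene from RefSeq (GRCm38.p6, 5 of 5 genes matched), and the capitals mark the GC box, GGGCGG or its reverse complement CCGCCC.
Axl (chr7:25788734-25788763, minus strand): cccaaggctggggccctagtGGGCGGaggc
Mertk (chr2:128698885-128698914, plus strand): ggactcctgcgatccccaactccgcactgc
Tyro3 (chr2:119799484-119799513, plus strand): gagggggaGGGCGGcacgagctccgcggag
Gas6 (chr8:13494536-13494565, minus strand): ccacccccacCCGCCCtaagccCCGCCCtc
Pros1 (chr16:62854277-62854306, plus strand): cctCCGCCCctggctgctCCGCCCGCCCgc
In the 250 bases before the start, TGANTCA was found in 0 of the 5 genes, beside 6.75% of 32851 such windows in RefSeq. The GC box was found in all 5 windows, 1 time for Axl, 3 times for Mertk and for Tyro3, 4 times for Gas6 and 5 times for Pros1 (with overlapping matches counted), beside 32.7% of windows with at least 1. Both motifs were searched on both strands, and these are matches of letters in 1 window for each gene. For Axl and Tyro3 RefSeq lists the gene as beginning 191 and 1774 bases further upstream, so other starts exist.

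Other genes of the pathway were taken from 8 lists, of which 80 of 88 genes were measured by a probe set of their own. The lists were drawn up with earlier results of these data known. Their counts and p-values, here and in the paragraphs that follow, are therefore given as a description. A gene was counted when at least 1 of its probe sets was called and none was called the other way. By that rule 0 of the 80 genes were lower and 2 were higher in Batf-/- cells, beside 0.792% of all genes lower and 0.269% higher. At an unadjusted limma p below 0.05, by the same rule, 5 were lower and 5 higher, close to the shares over all genes (5.86% lower and 4.80% higher). The 80 genes had a median log2 difference of 0.01, beside 0.00 over all genes. The genes that rose were Socs3 and Pparg.

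Socs3, the feedback inhibitor of cytokine signalling through which TAM receptors act in dendritic cells, rose. Its probe set 1416576_at had log2 levels of 0.60, 0.45 and 0.70 on the Batf-/- arrays, against 0.08, 0.00 and -0.17 on the Batf+/+ arrays. All Batf-/- arrays lay above all Batf+/+ arrays, a log2 difference of 0.61 ± 0.10 (SE, 1.53-fold, limma adjusted p = 0.0485). Its other probe sets gave 0.68 (adjusted p = 0.0521) and 0.61 (adjusted p = 0.125), and with the replicate number as a block the adjusted p was 0.0638 for 1416576_at and 0.0402 for 1455899_x_at. The adjusted p of 1416576_at lay between 0.0847 and 0.191 when any 1 array was left out. Socs1, its partner in that feedback, had a log2 difference of -0.01 ± 0.15 (SE, adjusted p = 0.9998), with 0.33 on Batf-/- array 3 and -0.28 on Batf-/- array 2. Of the 17 measured genes of signalling and feedback 1 rose and 16 were not called, with a median of -0.03, and both chains of the type I interferon receptor, Ifnar1 and Ifnar2, were among those not called.

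Pparg, a nuclear receptor that promotes uptake of dying cells in macrophages, had log2 levels of 1.19, 1.14 and 1.59 on the Batf-/- arrays, against -0.30, 0.00 and 0.16 on the Batf+/+ arrays. The genotypes were far apart, with a log2 difference of 1.36 ± 0.16 (SE, 2.56-fold, limma adjusted p = 0.0101). Without Batf+/+ array 2 its adjusted p was 0.0597. It was the 1 called gene of 8 measured transcription factors known to act on TAM genes in macrophages. Nr1h3, the liver X receptor that induces Mertk in macrophages, had a log2 difference of 0.05 ± 0.11 (SE, adjusted p = 0.998), and the median of that list was 0.05.

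In the remaining 6 lists 0 of 55 genes were called by limma, with 3 lower and 3 higher at an unadjusted p below 0.05, again close to those shares. Among 21 other phosphatidylserine receptors and bridging proteins the gene with the largest difference was Havcr2, which encodes the inhibitory receptor Tim-3. Havcr2 had log2 levels of -0.37, -0.66 and -0.26 on the Batf-/- arrays, against -0.20, 0.00 and 0.16 on the Batf+/+ arrays. Its genotypes did not overlap, but the log2 difference of -0.41 ± 0.13 (SE) did not pass (limma adjusted p = 0.465). Mfge8, a bridging protein that like Pros1 binds phosphatidylserine, had a difference of the same size as Pros1, -0.28 ± 0.08 (SE, adjusted p = 0.349); it was picked out after its values were seen.

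The machinery that readies the ligands and exposes their lipid had 0 called genes. Of 6 measured genes of vitamin K-dependent carboxylation and propeptide cleavage, the largest difference of a probe set was at Vkorc1l1, an enzyme that recycles vitamin K (0.21 ± 0.13 SE, limma adjusted p = 0.918), and of 7 other vitamin K-dependent proteins at the coagulation factor F10 (-0.23 ± 0.13, adjusted p = 0.889). Of 8 measured genes of phosphatidylserine exposure it was at Atp8a1, a lipid flippase (-0.45 ± 0.38, adjusted p = 0.966), in 1 of its 7 probe sets, 1423597_at, which spread widely over the Batf-/- arrays. Without Batf-/- array 1 that probe set had a log2 difference of -0.97 and was called (adjusted p = 0.00487). Plscr1, a scramblase picked out after its values were seen, had a log2 difference of 0.41 at each of a pair of its probe sets, with genotypes that did not overlap (adjusted p = 0.696 and 0.456). Its remaining probe set, 1457824_at, had a log2 difference of 0.08 with genotypes that overlapped (limma adjusted p = 0.991). Among 4 genes of receptor shedding and complement binding the largest difference of a probe set was at Adam17, a protease known to cleave Axl and Mertk (-0.16 ± 0.13, adjusted p = 0.957), and among 9 genes of engulfment at the adaptor Crk (0.28 ± 0.09, adjusted p = 0.401). As means of all their probe sets, Vkorc1l1, F10, Adam17 and Crk had log2 differences of 0.11, -0.06, -0.15 and 0.03.

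**Figure D3:**
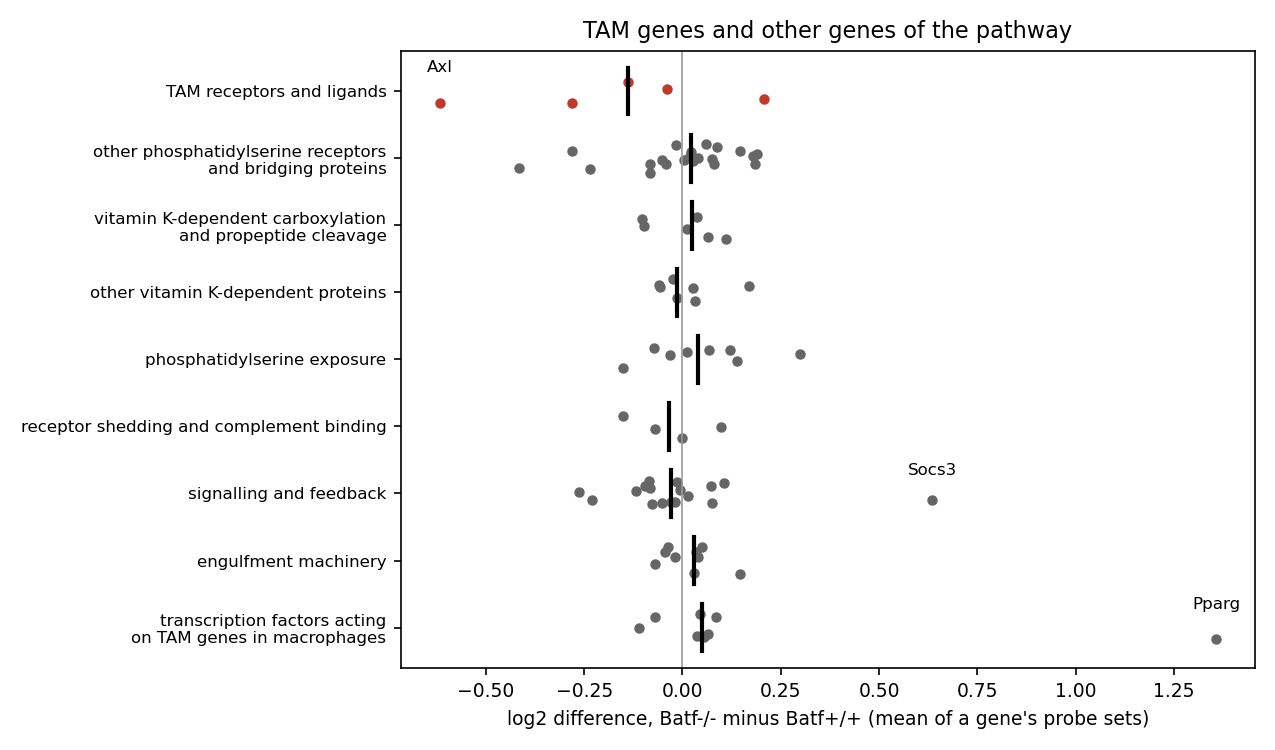
Log2 difference (Batf-/- minus Batf+/+) of each gene, as the mean of its probe sets, for the 5 TAM genes (red) and the 8 lists of other pathway genes (grey), with black bars at each median. Axl, at -0.62 after averaging its probe sets, is the lowest point, and Socs3 and Pparg stand to the right of the other genes.

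TAM genes are known from macrophages and dendritic cells, so markers of other cell types were read beside them. Of 20 macrophage markers 0 were called by limma, 0 passed at an unadjusted p below 0.05 and 14 lay above 0, and their mean level lay between -0.16 and 0.30 on Batf-/- arrays, against -0.07 and 0.12 on Batf+/+ arrays. Of 7 dendritic cell markers 0 were called, with mean levels between 0.01 and 0.16 on Batf-/- arrays, against -0.12 and 0.10 on Batf+/+ arrays. Over all 59 measured markers of other cell types 0 were called, with 0 lower and 6 higher at an unadjusted p below 0.05, beside 5.86% lower and 4.80% higher over all genes. The part of other cell types in the values of Axl and the other TAM genes was not tested. Batf-/- array 3 had the highest mean levels of B cell markers (0.48, with 0.05 and 0.07 on the other Batf-/- arrays and -0.07 to 0.08 on Batf+/+ arrays) and of NK cell markers (0.38, with 0.02 and 0.08 on the other Batf-/- arrays and -0.06 to 0.12 on Batf+/+ arrays). The markers did not move together on that array. Probe sets of B cell markers ran from -0.15 (Pax5) to 1.99 (Cd22), and those of NK cell markers from -0.12 (Klra8) to 1.21 (Eomes). Both probe sets of Cd22, Eomes 1435172_at and Nkg7 were higher on all Batf-/- arrays, with genotypes that did not overlap. Cd22 1419768_at was at 0.77 and 0.55 on Batf-/- arrays 1 and 2, against -0.09 to 0.20 on Batf+/+ arrays. Nkg7 was at 0.56 and 0.54 on the same Batf-/- arrays, against -0.11 to 0.20 on Batf+/+ arrays. The genotypes overlapped in all other probe sets of B and NK cell markers. Without Batf-/- array 3 Axl 1423586_at had a log2 difference of -1.27, but leaving out that array does not remove the higher Cd22 and Nkg7 levels. Of 7 Treg markers 0 were called (1 lower and 1 higher at an unadjusted p below 0.05, the threshold that 5.86% and 4.80% of all genes passed), with mean levels between -0.16 and -0.09 on Batf-/- arrays, against -0.10 and 0.03 on Batf+/+ arrays. Ikzf2 was lower at each of its probe sets, by log2 differences of -0.80, -0.42 and -0.30 (limma adjusted p = 0.145, 0.0975 and 0.357). Il2ra was higher at each of its own, by 0.22 and 0.20 (adjusted p = 0.688 and 0.76), and Foxp3 had a difference of -0.12 (adjusted p = 0.94).

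**Figure D4:**
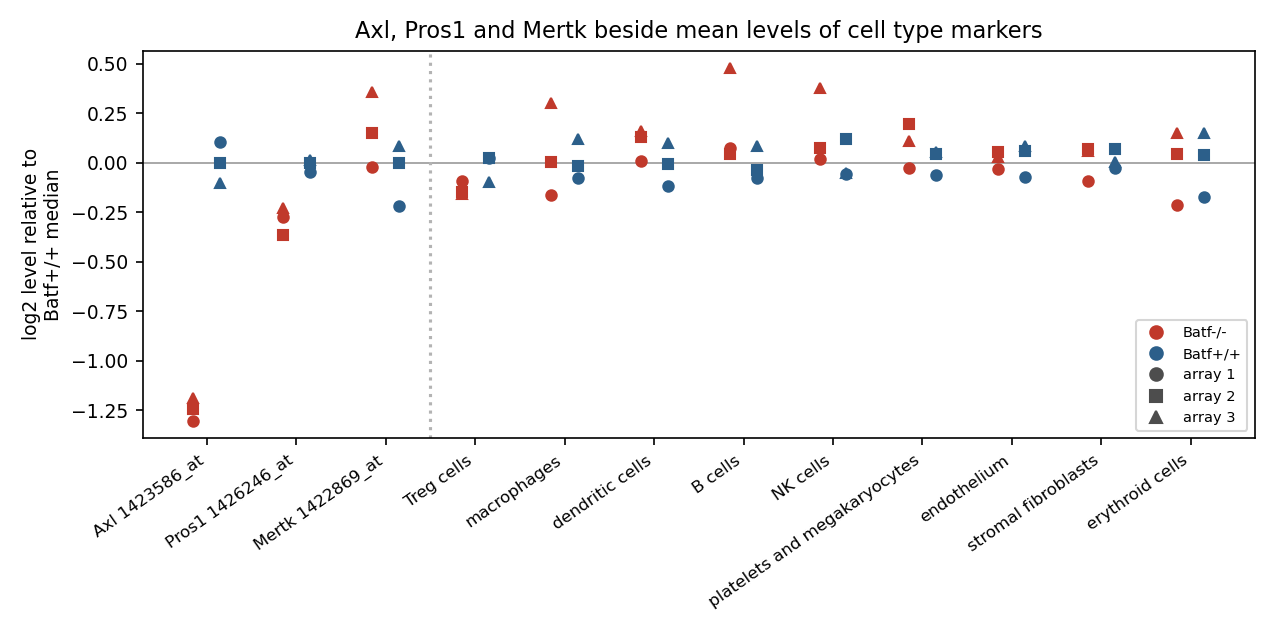
Log2 level relative to the Batf+/+ median on each array for Axl 1423586_at, Pros1 and Mertk (left of the dotted line) and for the mean of each list of cell type markers (right), with Batf-/- arrays in red and Batf+/+ arrays in blue. The red Axl points, between -1.30 and -1.19, lie apart from all marker lists, while the red points of the macrophage list spread from -0.16 to 0.30 around the blue ones. Marker points are means over genes, and single markers reach further (Cd22 1419768_at was at 1.99 on Batf-/- array 3). The second Axl probe set, between -0.17 and 0.02 on Batf-/- arrays, is not shown.

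The genes whose levels ran most like those of each TAM gene over the 6 arrays are given as a description, since with 6 arrays and 18192 other genes very high correlations occur whatever the gene, and any pair of genes whose genotypes lie apart in the same direction correlates for that reason alone. For Axl, as the mean of its probe sets, these were Klrg1 (Pearson r = 0.998), Bivm (0.997) and Tktl1 (0.996), which were themselves lower in Batf-/- cells, with log2 differences of -1.96, -0.51 and -1.05. For Pros1 they were Lclat1 and Vim (0.994 each) and Klrg1 (0.992), Klrg1 being a lectin-like inhibitory receptor. For Mertk they were Dus2 (0.997), Grip2 and Fam161a (0.994 each), for Tyro3 Pttg1ip2 (0.992), Txnrd3 and Gsx1 (0.99 each), and for Gas6 Hspb1 (0.998), Sohlh2 (0.977) and Klk1b7-ps (0.975).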

How the data were processed

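Total RNA of 6 samples, 3 Batf-/- and 3 Batf+/+, was turned into biotin-labelled material with a 3' expression kit and measured on arrays, per the labels' protocols. The deposited values came from RMA, per the submitters' processing notes; its version and the log base are not given in the sources used here. The deposited values were taken as log2, the base that RMA uses. In all 45101 probe sets the median of the Batf+/+ arrays is exactly 0, so the deposited values were centred. This removes levels, so no filter on low values was possible, but leaves differences between arrays as they were.

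Of these probe sets, 34945 had 1 gene in the platform annotation, 932 several, 9160 none and 64 were controls, and only the first kind was used. Genotypes were compared with limma 3.58.1 in R 4.3.3 (lmFit, eBayes), on genotype alone, with p-values adjusted by Benjamini-Hochberg over all 34945, and the fit was tested on simulated data. Log2 differences were turned into fold changes by raising 2 to them. Same-numbered arrays of the genotypes deviated together (correlations of 0.411, 0.203 and 0.439 over probe sets, each above a minimum of 0.1). Arrays of different numbers had correlations between -0.381 and 0.006. Deviations within a genotype cancel out, so positive values in some pairs go with negative ones in others. A fit with the number as a replicate block was therefore an alternative, and nothing in the labels says what the numbers share. The others were equal array medians, quantile normalization, array weights, robust moderation, other sets of probe sets, gene means, and leaving out each array.

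The TAM genes, the lists and the rules were chosen with earlier results of these data known. Named are all TAM probe sets, Batf, up to 3 called genes of each list or else the gene with the largest difference, the 3 genes most correlated with each TAM gene, and a few background genes given for their role or after their values were seen.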

Additional observations from a re-analysis of the deposited data

How the results depend on the processing

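Values of the TAM probe sets are described under the alternatives, and nothing is read from their calls. Of 101 values of single TAM probe sets under the alternatives 1 moved by over 1 SD, that of Axl 1423586_at after quantile normalization (-0.94). Quantile normalization gives all arrays the same spread. The centred values had SDs of 0.12 to 0.17 on Batf+/+ arrays and 0.24 to 0.26 on Batf-/- arrays, so it draws in the far values of Batf-/- arrays. This limits its use here and for the counts of called probe sets below. The range of Axl 1423586_at was -1.30 to -0.94, and that of Pros1 -0.31 to -0.24. Near 0 the sign was not stable: Axl 1438621_x_at ranged from -0.10 to 0.10, Gas6 1417399_at from -0.12 to 0.09, Gas6 1459585_at from -0.18 to 0.07 and Tyro3 1425249_a_at from -0.18 to 0.02.

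Of the pathway genes, 1 in place of 2 was called higher with equal array medians, after quantile normalization, with all probe sets except controls, and after dropping the probe sets with a suffix for shared sequence, where Pparg was not tested; in the other 3 the call lost was Socs3, and the cause was not tested. With the replicate block 2 were called. When 1 array was left out, between 0 and 1 pathway genes were called higher and between 0 and 1 lower, with 0 higher without Batf+/+ array 2 and 1 lower (Atp8a1) without Batf-/- array 1. The value of Atp8a1 was 0.0114 as the mean of its probe sets. Over all probe sets, 188 were called lower and 61 higher, against 87 and 33 after quantile normalization, 64 and 17 without Batf+/+ array 1, 68 and 17 without Batf+/+ array 2, 107 and 29 without Batf+/+ array 3, and 81 and 29 without Batf-/- array 2. The number called higher was 36 without Batf-/- array 3 and 92 with the replicate block. A filter on low values and a mean-variance trend were not run, since the values are centred.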

Other observations

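Of 178 probe sets of pathway genes 46 had Batf-/- array 1 on the opposite side of 0 from Batf-/- arrays 2 and 3. In 4 of them array 1 lay at least 0.8 from both, a distance chosen after the values were seen. The same counts for Batf-/- arrays 2 and 3 and over all probe sets are not given here. Nothing particular to array 1 is therefore read from these counts. Atp8a1 probe set 1423597_at had log2 levels of 0.58, -1.06 and -0.93 on Batf-/- arrays 1, 2 and 3, against 0.00, -0.05 and 0.00 on the Batf+/+ arrays. Ifnar1 probe set 1442222_at had 0.56, -0.49 and -0.45 on the Batf-/- arrays, against 0.04, 0.00 and -0.15 on the Batf+/+ arrays. Jak1 probe set 1433804_at had 0.37, -1.87 and -0.85 on the Batf-/- arrays, against 0.16, -0.90 and 0.00 on the Batf+/+ arrays. Klf4 probe set 1417395_at had 0.78, -0.16 and -1.35 on the Batf-/- arrays, against 0.00, 0.67 and -1.32 on the Batf+/+ arrays, so in Jak1 and Klf4 the Batf+/+ arrays spread widely too. The other probe sets of Atp8a1 lay between -0.16 and 0.27 on the Batf-/- arrays.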
